A study of Mus musculus with 12 samples.

Results

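A set of 9 genes that encode cofactors of MLL fusion proteins and parts of the transcription elongation machinery were followed across STAT3β-deficient and wildtype AML blasts. They are Men1, Psip1, Mllt1, Mllt3, Aff1, Aff4, Dot1l, Mllt10 and Kdm1a, chosen by name, and all 9 of 9 were found among the 24454 genes of the expression table and among the 11476 genes tested. Leukemic blasts were made by retroviral transduction of fetal liver cells (FLCs) with a vector that carries the MLL-AF9 oncogene and a Venus fluorescence reporter. The FLCs came from wildtype (WT) mice or from mice that lack the STAT3β splice isoform (Δβ, labelled Delta beta). Both kinds of blast, all carrying MLL-AF9, were transplanted into young adult male mice of the strain NOD.Cg-Prkdc scid Il2rg tm1Wjl/SzJ, known as NSG, and Venus+ cells were sorted from spleen (SP) and bone marrow (BM) of the diseased animals. RNA was sequenced from 3 libraries each of WT SP, Δβ SP, WT BM and Δβ BM, 12 libraries in all. The host lacks mature T, B and NK cells of its own but keeps its myeloid, red and stromal cells. Neither the number of FLC lines behind the libraries nor whether equal numbers in SP and BM mark 1 animal is given in the sources used here, so p-values measure the spread between these libraries, which may be in part technical.

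The MLL-AF9 fusion joins the amino-terminal part of KMT2A (MLL), a histone H3 lysine 4 methyltransferase, to the carboxy-terminal part of MLLT3 (AF9), a chromatin reader. Menin (Men1) and LEDGF (Psip1) tether the KMT2A part of the fusion to chromatin. The MLLT3 part recruits the super elongation complex, built on the AFF1 or AFF4 scaffold with MLLT1 (ENL) or MLLT3 and the kinase P-TEFb, which releases paused RNA polymerase II. It also recruits DOT1L, the histone H3 lysine 79 methyltransferase, which works with MLLT10 (AF10). LSD1 (Kdm1a), a histone demethylase, is needed to keep MLL-AF9 blasts undifferentiated, and several of these proteins are drug targets in AML.

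Values are normalized counts, which are the gene's read count divided by 1 size factor per library, so that 1 read was worth 0.775 to 1.17 normalized counts. The libraries held 9001051 to 13859727 reads on genes, and a member was covered by 168 reads (Mllt3 in 1 WT SP library) to 3483 reads (Aff1) in a library. All 10 of 10 myeloid blast markers, Mpo, Itgam and Kit among them, were present, with summed normalized counts of 55700 to 155000 per library. The red cell genes Hbb-bs, Hbb-bt, Hba-a1 and Hba-a2 had fewer than 3 reads in every library. So did Cd5l, Ncr1, Kdr, Lepr and Pf4, each 1 of a list of macrophage, NK, endothelial, stromal or megakaryocyte markers whose other genes were in part present. The summed level per library was 223 to 466 normalized counts for the 4 B cell markers, 29.8 to 68.4 for the 3 megakaryocyte markers and at most 33.7 for both NK markers. The 3 T cell markers in the table summed to at most 48.8 in the other groups and to as much as 185 in Δβ BM. The summed level of 7 resident macrophage markers was 4280 to 6720 normalized counts in WT BM and 1370 to 2980 in the other 3 groups, and 6 of the 7 had at least 3 reads in some library. The summed level of 3 endothelial markers, of which Pecam1 is also made by myeloid cells, was 1050 to 1190 in WT SP and 1400 to 2520 in Δβ SP, and that of 4 stromal markers was 29.2 to 50.6 in WT BM and at most 28.3 elsewhere. The part of these markers in the results was not tested. WT SP replicate 3 stood apart from WT SP replicates 1 and 2. The granule enzyme Mpo had 40590 normalized counts in replicate 3 against 5947 and 5256, and the integrin Itgam had 10940 against 26290 and 21980. The ribosomal RNA precursor Rn45s made up 2.48% and 2.41% of the reads of WT SP replicates 2 and 3, against 0.178% to 0.725% in the other 10 libraries, and its part in the SP genotype and WT organ results was not tested. Calls that changed without WT SP replicate 3 are given with and without it.

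The pair Mllt3 and Mllt1 shows why per-gene reads of close relatives can be separated and yet not those of the fusion. The last 150 coding bases of Mllt1 (GRCm38 chr17:56894465-56894690, minus strand, 2 exons) and the stretch of Mllt3 best aligned to them without gaps (chr4:87774021-87782310, minus strand, 2 exons, ending 1 codon before the end of the coding sequence) lie in the part of the gene that MLL fusions retain. They are printed 5′ to 3′, from the GENCODE M21 transcripts, with capitals where the bases differ.
Mllt3: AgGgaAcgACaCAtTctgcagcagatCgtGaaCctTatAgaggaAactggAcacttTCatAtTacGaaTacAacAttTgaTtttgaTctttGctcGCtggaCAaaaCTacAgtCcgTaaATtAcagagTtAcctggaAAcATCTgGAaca
Mllt1: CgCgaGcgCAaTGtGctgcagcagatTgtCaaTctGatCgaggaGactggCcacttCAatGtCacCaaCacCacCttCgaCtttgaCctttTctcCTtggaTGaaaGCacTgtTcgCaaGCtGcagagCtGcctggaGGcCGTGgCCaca
The stretches shared 101 of 150 bases (67.3%). No window of 50 bases in the longest Mllt3 or Mllt1 transcript occurred in the other, nor did any of Aff1 in Aff4. Only Mllt3 and Psip1 of the members shared 50-base windows with another gene, 3 of 6020 windows (0.05%) with Dach1 and 206 of 3202 (6.43%) with Gm15773. Reads of the MLL-AF9 transgene, by contrast, could have been counted on Mllt3 and Kmt2a, and per-gene values cannot tell them from reads of the cells' own genes. Whether the vector holds human or mouse sequence is not given in the sources used here.

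Comparing the genotypes asks whether the loss of STAT3β moves the machinery on which the fusion depends. In SP, 0 of 9 members passed an adjusted p of 0.05 by limma, where 12 of 11476 tested genes (0.105%) did. In BM it was 0 of 9 members, where 8 genes (0.0697%) passed. Neither edgeR nor DESeq2 called a member in either organ, although DESeq2 called 457 genes (3.98%) in SP. At an unadjusted p under 0.05, 1 member (Aff4) passed in SP and 0 in BM, beside 14.9% and 2.59% of all tested genes. The median absolute log2 difference of the members was 0.201 in SP, against 0.244 over all tested genes, and 0.169 against 0.126 in BM. The 95% intervals of limma still allowed changes between 0.52-fold (Aff4) and 2.0-fold (Mllt3) in SP, and between 0.643-fold (Aff4) and 1.91-fold (Mllt3) in BM. Fewer cells of a type and less RNA per cell cannot be told apart in such bulk samples.

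**Figure D1:**
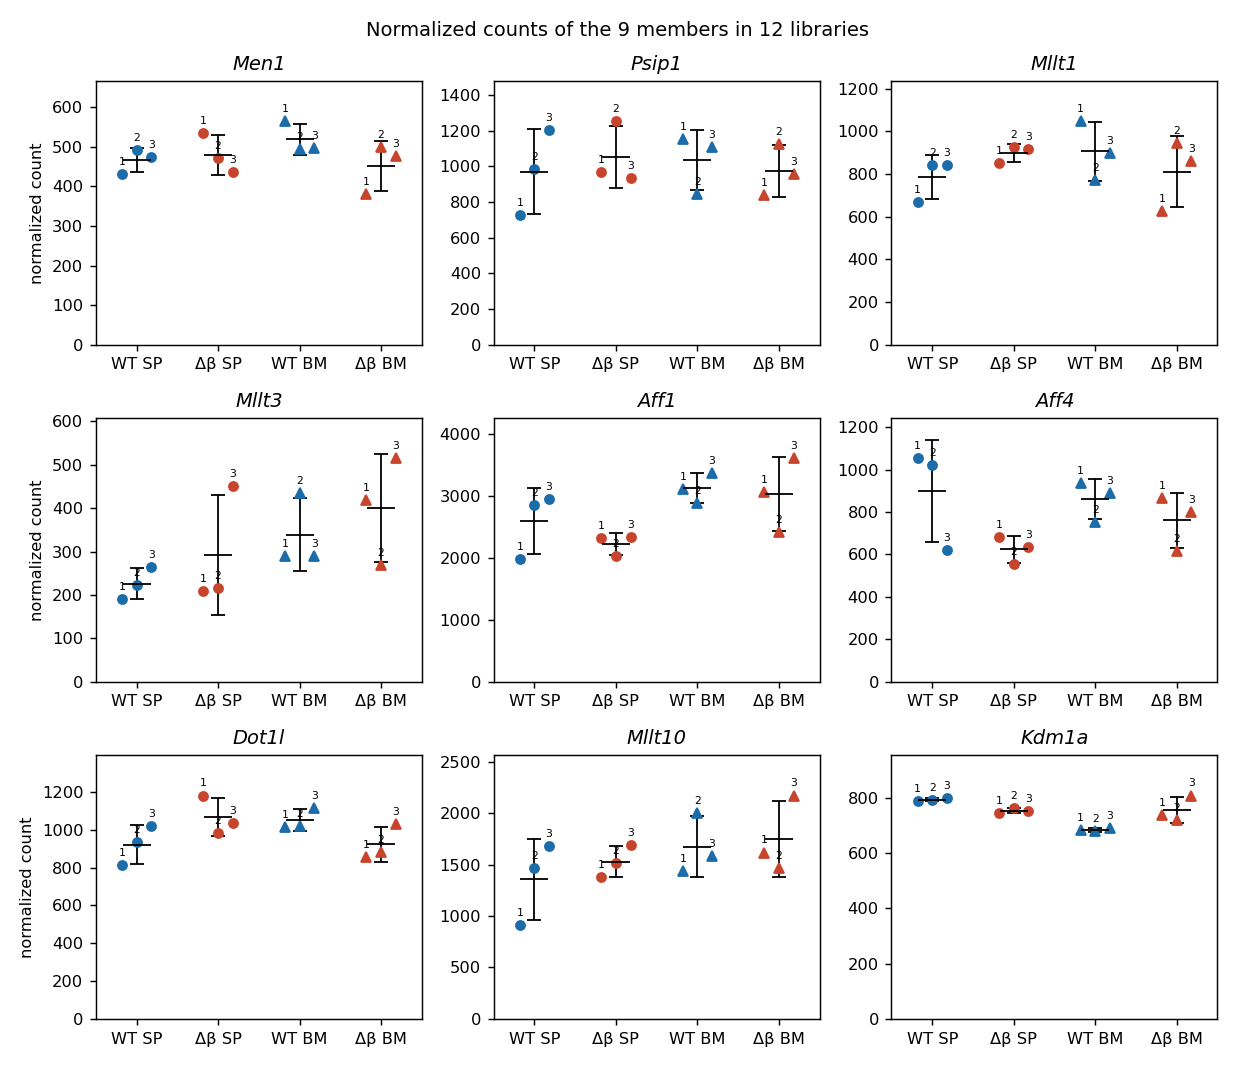
Normalized counts of each member in WT (blue) and Δβ (red) libraries from SP (circles) and BM (triangles), with replicate numbers beside the points and bars for the mean ± SD (n = 3); axes start at 0. Kdm1a varied by 1.19-fold between its lowest and highest library and Mllt3 by 2.68-fold.

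Menin and LEDGF, the tether of the fusion, did not pass the test in either organ. Men1 (Entrez gene 17283, GRCm38 chr19:6334979-6340891, plus strand) had normalized counts of 432, 491 and 474 in replicates 1 to 3 of WT SP and 535, 470 and 436 in Δβ SP. The BM values were 565, 493 and 497 in WT and 381, 499 and 476 in Δβ. The groups overlapped in both organs, and the log2 difference was 0.04 (SE 0.13, adjusted p = 0.894 by limma) in SP and -0.20 (SE 0.13, adjusted p = 1.0 by limma) in BM. The interval of Men1 in SP ran from 0.839-fold to 1.26-fold.
Psip1 (Entrez gene 101739, chr4:83455680-83486459, minus strand) had 726, 986 and 1202 normalized counts in WT SP and 966, 1253 and 937 in Δβ SP. In BM it had 1156, 846 and 1108 in WT and 837, 1127 and 958 in Δβ. Each group held both low and high libraries, and the log2 difference was 0.13 (SE 0.20) in SP and -0.09 (SE 0.20) in BM. Exons of Psip1 overlap those of Snapc3 on the other strand, and whether the counting used strand is not given in the sources used here.

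The scaffolds of the super elongation complex, Aff1 and Aff4, were both lower in Δβ SP on average, and neither passed the test. Aff4 (Entrez gene 93736, chr11:53350833-53421830, plus strand) had 1053, 1020 and 623 normalized counts in WT SP and 683, 556 and 636 in Δβ SP. WT SP replicates 1 and 2 lay above all Δβ SP libraries, whereas WT SP replicate 3 lay among them. The log2 difference in SP was -0.49 (SE 0.21, adjusted p = 0.311 by limma), 0.712-fold with an interval of 0.52-fold to 0.975-fold. Without WT SP replicate 3 it was -0.73 (SE 0.16, adjusted p = 0.0186 by limma), in a comparison in which 1886 of 11478 genes (16.4%) passed. It was -0.36 (SE 0.22, adjusted p = 0.696 by limma) without WT SP replicate 1. Without WT SP replicate 2 it was -0.38 (SE 0.23, adjusted p = 0.641 by limma), and both of these intervals included 0. In BM, Aff4 had 936, 755 and 891 normalized counts in WT and 867, 617 and 802 in Δβ, a log2 difference of -0.18 (SE 0.21, adjusted p = 1.0 by limma) with overlapping groups.
Aff1 (Entrez gene 17355, chr5:103692374-103855322, plus strand) had 1989, 2855 and 2951 normalized counts in WT SP and 2323, 2025 and 2343 in Δβ SP. Its WT SP replicate 1 was the lowest of all 12 libraries, the opposite of Aff4, which was highest there. The log2 difference was -0.20 (SE 0.18) in SP, and in BM, with 3111, 2888 and 3375 in WT and 3067, 2422 and 3608 in Δβ, it was -0.06 (SE 0.18).
Per kilobase of exon, Aff4 reached 0.372, 0.251 and 0.148 of the Aff1 level in WT SP replicates 1 to 3. The ratio ran from 0.191 to 0.207 in Δβ SP, from 0.184 to 0.212 in WT BM and from 0.156 to 0.199 in Δβ BM. The WT SP libraries thus spread over a wider range of this ratio than the other 9 libraries together.

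**Figure D2:**
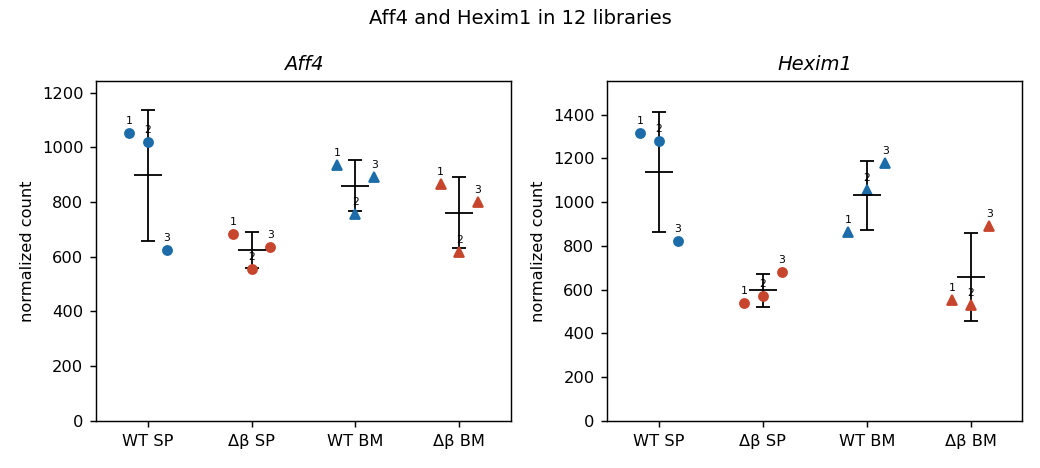
Normalized counts of Aff4 and of Hexim1, an inhibitor of P-TEFb, in the 12 libraries, with replicate numbers, colours and symbols as in the plot of all members and bars for the mean ± SD (n = 3); axes start at 0. In SP, both genes were highest in WT replicates 1 and 2, and WT replicate 3 lay within the Δβ values for Aff4 and above them for Hexim1.

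The readers of the complex, Mllt1 and Mllt3, differed in how much they varied. Mllt1 (Entrez gene 64144, chr17:56892611-56935415, minus strand) had 669, 845 and 844 normalized counts in WT SP and 851, 925 and 918 in Δβ SP. All Δβ SP libraries were above all WT SP libraries (the closest were 851 and 845), and the log2 difference was 0.20 (SE 0.17, adjusted p = 0.556 by limma). In BM the order was not kept, with 1048, 774 and 898 in WT and 628, 945 and 863 in Δβ and a log2 difference of -0.17 (SE 0.17). Groups that do not overlap were found for 17.3% of all tested genes in SP and 7.63% in BM. Among the members, Mllt1 and Kdm1a had such groups in SP and Kdm1a in BM.
Mllt3 (Entrez gene 70122, chr4:87769925-88033364, minus strand) was the member with the fewest reads and the widest spread. Its normalized counts were 191, 224 and 264 in WT SP and 210, 215 and 451 in Δβ SP. BM blasts had 291, 436 and 289 in WT and 420, 269 and 515 in Δβ. Replicate 3 was the highest Δβ library of both organs, and replicate 2 was the highest WT BM library. The log2 difference was 0.28 (SE 0.32, adjusted p = 0.669 by limma) in SP and 0.22 (SE 0.32, adjusted p = 1.0 by limma) in BM. The SP value was 0.47 without Δβ SP replicate 1 and -0.08 without Δβ SP replicate 3, so that its sign rested on the latter library. Its within-group SD of 0.443 on the log2 scale was above the 0.0876 that counting error alone gives at this depth, and 74.5% of tested genes had an SD at or below it.

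Dot1l and Mllt10, which act together in histone H3 lysine 79 methylation, did not pass the test either. Dot1l (Entrez gene 208266, chr10:80755206-80795461, plus strand) had 811, 934 and 1018 normalized counts in WT SP and 1181, 985 and 1034 in Δβ SP. In BM the counts were 1016, 1018 and 1117 in WT and 855, 883 and 1031 in Δβ. On average Δβ was the higher genotype in SP (log2 difference 0.21, SE 0.12) and the lower one in BM (-0.19, SE 0.12), with overlapping groups in each organ. The difference between these genotype effects was 0.40 on the log2 scale (SE 0.17, adjusted p = 0.926 by limma). It was the only member at an unadjusted p under 0.05 in that interaction, beside 3.2% of all genes, and 0 of 11476 genes (0.0%) passed after adjustment by limma, with 0 by edgeR and 3 by DESeq2.
Mllt10 (Entrez gene 17354, chr2:18055237-18212388, plus strand) had 917, 1471 and 1683 normalized counts in WT SP and 1383, 1514 and 1689 in Δβ SP. Its BM libraries had 1440, 2005 and 1582 in WT and 1618, 1467 and 2172 in Δβ. WT SP replicate 1 was the lowest and Δβ BM replicate 3 the highest library, 2.37-fold apart. The log2 difference was 0.21 (SE 0.23) in SP and 0.06 (SE 0.23) in BM, with overlapping groups. Exons of Mllt10 overlap those of Dnajc1 on the other strand.

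Kdm1a was the steadiest member. It (Entrez gene 99982, chr4:136550540-136602723, minus strand) had 789, 793 and 799 normalized counts in WT SP and 743, 764 and 753 in Δβ SP. The BM values were 684, 678 and 692 in WT and 736, 720 and 808 in Δβ. Its within-group SD of 0.0461 on the log2 scale was within the 0.0542 that counting error alone gives for 1 library, and 0.0436% of tested genes had an SD at or below it, against a median of 0.267 over all tested genes. The groups did not overlap in either organ, with Δβ lower in SP and higher in BM. The log2 difference was -0.07 (SE 0.09, adjusted p = 0.666 by limma) in SP, an interval of 0.833-fold to 1.08-fold. In BM it was 0.14 (SE 0.09, adjusted p = 1.0 by limma), an interval of 0.966-fold to 1.25-fold. Counting error alone gives such differences an SE of 0.043 in SP and 0.0455 in BM.

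**Figure D3:**
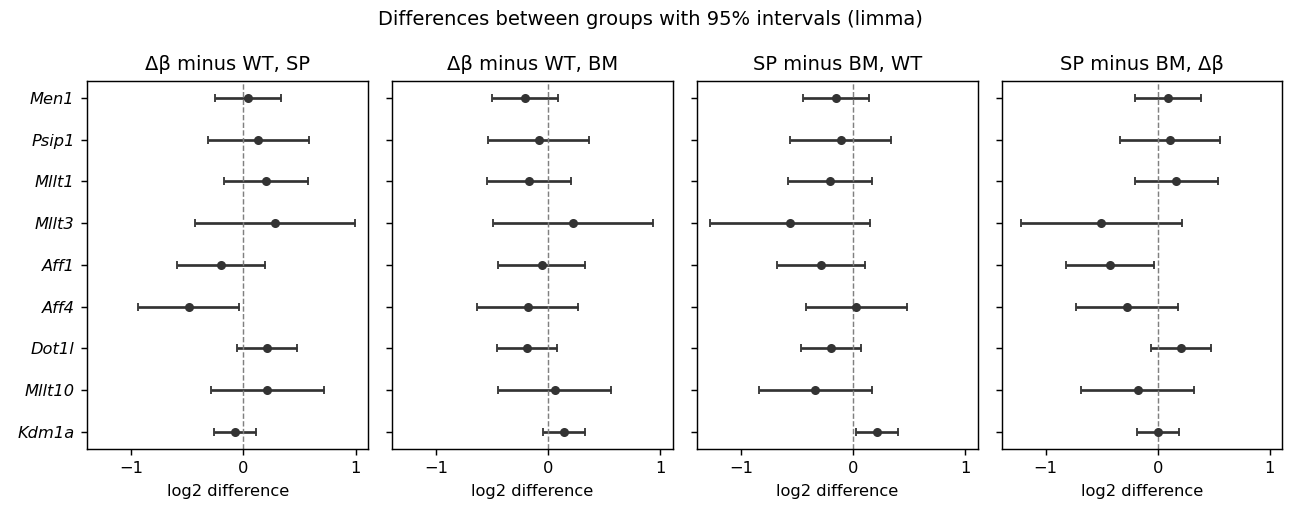
Differences of each member between genotypes in SP and BM and between organs in WT and Δβ, in log2 units, with points for the estimate by limma and bars for its 95% interval (3 libraries per group). The interval did not include 0 for Aff4 in the first panel, Kdm1a in the third and Aff1 in the last, and 0 of these passed after adjustment.

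Comparing SP with BM within a genotype asks whether the organ in which the blasts grew moves the same genes. These comparisons use the same libraries as the genotype comparisons. No member passed in WT or in Δβ blasts, and 0 of 11476 genes did in either (0.0%) by limma. edgeR called 0 genes in both, and DESeq2 called 111 in WT and 2 in Δβ, with 0 members. At an unadjusted p under 0.05 the shares of all genes were 8.27% in WT and 1.77% in Δβ, and the members at this level were Kdm1a in WT and Aff1 in Δβ. Groups without overlap were found for 11.5% of tested genes in WT and 7.42% in Δβ, and for 3 and 1 of the 9 members.
In WT blasts Kdm1a was higher in SP by 0.21 on the log2 scale (SE 0.09, adjusted p = 0.598 by limma), 1.16-fold with an interval of 1.02-fold to 1.32-fold. Its 3 WT SP libraries were all above its 3 WT BM libraries, and in Δβ blasts the difference was -0.0006 (SE 0.09). Men1 and Mllt3 were lower in every WT SP library than in every WT BM library. For Men1 the closest libraries were 491 and 493 normalized counts and the log2 difference was -0.15 (SE 0.13). For Mllt3 the log2 difference was -0.56 (SE 0.32) in WT and -0.50 (SE 0.32) in Δβ, where the groups overlapped. Aff1 was lower in every Δβ SP library than in every Δβ BM library, with a log2 difference of -0.43 (SE 0.18, adjusted p = 1.0 by limma), 0.744-fold with an interval of 0.567-fold to 0.976-fold. In Δβ, where SP and BM libraries with equal numbers deviated together, Mllt3, Aff1 and Aff4 were lower in SP in 3 of 3 pairs. With a block for these pairs the log2 difference was -0.50 (SE 0.22) for Mllt3, -0.43 (SE 0.15) for Aff1 and -0.28 (SE 0.18) for Aff4, each at an adjusted p of 1.0 by limma. The remaining organ differences lay between -0.34 (Mllt10 in WT) and 0.21 (Dot1l in Δβ).

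Levels of different genes can be set side by side only per length, and for this the normalized count was divided by the kilobases of all annotated exons of a gene. On this scale the mean level over the 12 libraries was 290.4 ± 55.1 for Aff1 (SD, n = 12), 267.2 ± 53.1 for Mllt10, 217.1 ± 29.7 for Mllt1 and 198.5 ± 31.9 for Psip1. Kdm1a followed with 144.1 ± 8.87, Men1 with 124.9 ± 12.5 and Dot1l with 113.8 ± 12.2, and the lowest were Aff4 with 58.5 ± 12.5 and Mllt3 with 26.2 ± 9.21. The highest member was thus 11.1-fold above the lowest, or 6.37-fold with the longest transcript of each gene as its length. Between neighbours in this order, the ranges over the 12 libraries were apart only for Dot1l and Aff4. Within single libraries, Aff4 was above Mllt3 in 12 of 12, and Kdm1a above Men1 in 11 of 12. With the longest transcript in place of all exons, Psip1 and Kdm1a moved ahead of Mllt1 and the other members kept their places.

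**Figure D4:**
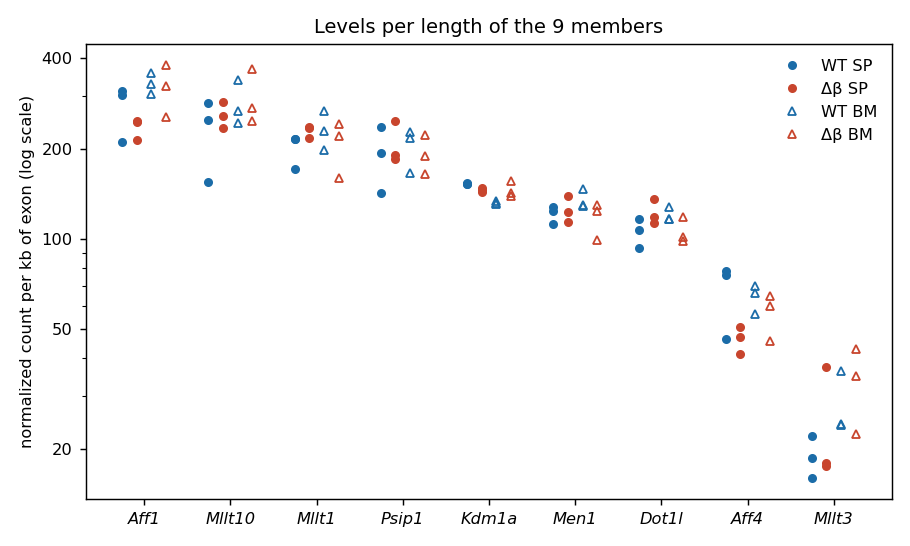
Normalized counts per kilobase of exon of each member in the 12 libraries (log scale), ordered by mean level, with filled circles for SP, open triangles for BM, blue for WT and red for Δβ. Aff1 at 290.4 on average and Mllt3 at 26.2 mark the ends of the range, and the gap between Dot1l and Aff4 is the only place where neighbours do not overlap.

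Within the pair of readers, Mllt3 reached 0.0864 to 0.102 of the Mllt1 level per kilobase in WT SP, and ratios from 0.0759 to 0.16 in Δβ SP, from 0.0906 to 0.184 in WT BM and from 0.0928 to 0.218 in Δβ BM. With the longest transcript as the length, the mean ratio in SP was 0.172 for WT and 0.194 for Δβ, and in BM it was 0.232 for WT and 0.309 for Δβ. On the scale of all exons Mllt1 was the more abundant reader in every library.

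Kmt2a, the gene of the other end of the fusion, was the gene whose pattern over the libraries was closest to that of Mllt3. Likeness was measured as the root mean square difference of log2 values, each gene centred on its own mean over the 12 libraries. For Mllt3 and Kmt2a it was 0.189, against the 0.467 by which Mllt3 departed from its own mean, and it was the smallest of 11475 genes compared, followed by Aldh6a1 with 0.224. Kmt2a (Entrez gene 214162, chr9:44803355-44881296, minus strand) had 2236, 2906 and 2383 normalized counts in WT SP and 2722, 2633 and 4521 in Δβ SP. In BM it had 3619, 4297 and 3576 in WT and 3744, 2931 and 5268 in Δβ. As for Mllt3, WT SP replicate 1 was the lowest library, replicate 3 was the highest Δβ library in each organ, and WT BM replicate 2 was the highest WT library. Mllt3 amounted to 7.7% to 11.2% of the Kmt2a count, a 1.46-fold range. Without Δβ replicate 3 of both organs, Kmt2a ranked 3 with a difference of 0.198, and it ranked 11 among SP libraries and 27 among BM libraries alone. Seen from Kmt2a, Mllt3 ranked 3 over all libraries and 80 without Δβ replicate 3 of both organs. In SP libraries alone it ranked 62, and in BM libraries alone 256. What reads of the fusion transgene add to either gene cannot be told apart from the cells' own transcripts. Kmt2a did not pass the test between genotypes, with a log2 difference of 0.36 (SE 0.24, adjusted p = 0.478 by limma) in SP and 0.02 (SE 0.24, adjusted p = 1.0 by limma) in BM. Exons of Kmt2a overlap those of AC061963.1 on the other strand.

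**Figure D5:**
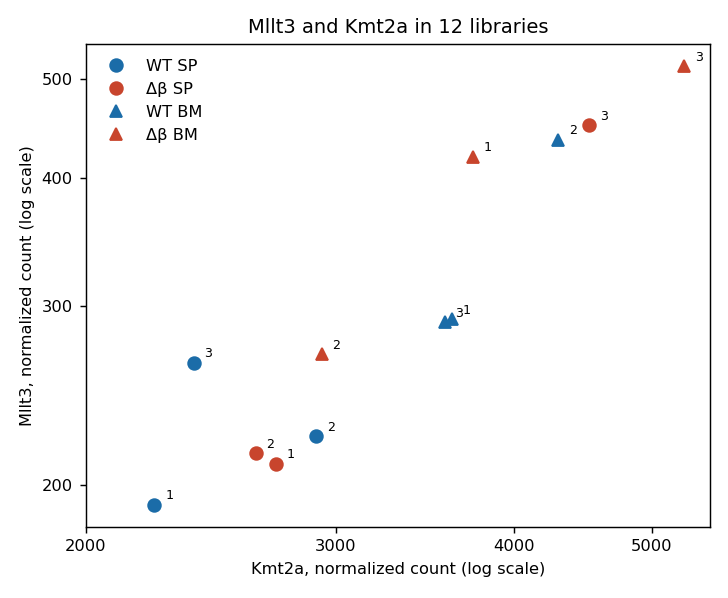
Normalized counts of Mllt3 against Kmt2a in the 12 libraries (both axes on a log scale), with WT in blue, Δβ in red, SP as circles, BM as triangles and replicate numbers beside the points. WT SP replicate 1 lies at the lower left, at 2236 and 191, and Δβ BM replicate 3 at the upper right, at 5268 and 515.

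The nearest genes to the other members, on the same measure over 12 libraries, lay at smaller differences than Kmt2a from Mllt3. These members also departed less from their own means, by 0.0855 (Kdm1a) to 0.295 (Aff4), against 0.467 for Mllt3. The nearest genes were the cyclin gene Ccnk (0.0523) and Atp6v1h (0.06) for Kdm1a, Khsrp (0.0831) and Gmppb (0.0898) for Mllt1, and Sec22c (0.0865) and Lpar2 (0.0924) for Aff1. Men1 was nearest to Urgcp (0.087) and Gna11 (0.0874), Psip1 to Zcchc17 (0.0912) and Pcbp1 (0.0931), Aff4 to the ubiquitin ligase gene Cbl (0.0926) and Vezf1 (0.101), Dot1l to Mbd1 (0.0929) and Taf3 (0.0974), and Mllt10 to Ncam1 (0.119) and Cep72 (0.13).

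The direct partners of the members were listed in 5 groups of 58 genes, 56 of which were tested. By limma, 0 of 56 passed in each of the 5 comparisons, and edgeR also called 0 of them. At an unadjusted p under 0.05, 3 were higher and 2 lower in Δβ SP, 0 higher and 1 lower in Δβ BM, 1 higher and 3 lower in WT SP against WT BM, and 0 in Δβ SP against Δβ BM and in the interaction. These were 8.93% of the partners in SP, 1.79% in BM and 7.14% between organs in WT, beside 14.9%, 2.59% and 8.27% of all tested genes, so no share was above that of all genes. The median log2 difference of the partners was -0.01 in SP and -0.05 in BM, beside -0.01 and -0.02 for all tested genes.
Hexim1 (Entrez gene 192231, chr11:103116231-103119725, plus strand), which holds P-TEFb in its inactive complex, was the partner of the super elongation complex with the smallest p in both organs. Its normalized counts were 1316, 1277 and 821 in WT SP and 540, 569 and 680 in Δβ SP. All Δβ SP libraries were below all WT SP libraries, with a log2 difference of -0.91 (SE 0.23, adjusted p = 0.209 by limma), 0.534-fold with an interval of 0.373-fold to 0.763-fold. DESeq2 gave Hexim1 an adjusted p of 0.0183 in SP, and it was the only partner that DESeq2 called there (1.79% of partners, beside 3.98% of all tested genes). Without WT SP replicate 3 the log2 difference was -1.13 (SE 0.22, adjusted p = 0.0141 by limma). BM blasts had 864, 1054 and 1177 in WT and 553, 530 and 892 in Δβ, a log2 difference of -0.68 (SE 0.23, adjusted p = 1.0 by limma). Only Δβ BM replicate 3 reached into the WT range, and without it the BM difference was -0.92 (SE 0.22, adjusted p = 0.393 by limma). With 1 library left out at a time, the Hexim1 difference lay between -1.13 and -0.79 in SP, weakest without WT SP replicate 1. In BM it lay between -0.92 and -0.54, weakest without Δβ BM replicate 2. Hexim1 lies on the same chromosome as Stat3 (chr11:100885098-100939540, minus strand), and whether this has a part in its difference was not tested. The other P-TEFb regulators named by p, Larp7 with 720 to 1219 normalized counts and Mepce with 692 to 1017, did not pass.
Among the other partner groups, the genes with the smallest p in SP or BM did not pass either. In the group of LSD1 partners, the corepressor Rcor3 had 202, 243 and 259 normalized counts in WT SP and 186, 166 and 163 in Δβ SP, a log2 difference of -0.44 (SE 0.15, adjusted p = 0.248 by limma). The related Rcor1 had 889 to 983 normalized counts in WT SP and 668 to 830 in Δβ SP (log2 difference -0.30, SE 0.14). Rcor2, with 4.56 to 30.2 normalized counts in a library, was low throughout, and its log2 difference of 1.22 (SE 0.45) in SP rested on few reads.
Among the partners of DOT1L and AF9, Bcor, a corepressor of the Polycomb family, had 1678, 2953 and 2149 normalized counts in WT SP and 3371, 2981 and 4086 in Δβ SP (log2 difference 0.65, SE 0.25, adjusted p = 0.286 by limma). In BM its groups overlapped (-0.11, SE 0.25). Mllt6, a relative of Mllt10, had 356, 183 and 91.3 normalized counts in WT SP and 87.5 to 113 in Δβ SP (log2 difference -0.88, SE 0.43), and Cbx8 had 157 to 312 in the 12 libraries. Without WT SP replicate 3, 4 partners (7.14%) passed in SP by limma, beside 16.4% of all tested genes. Besides Hexim1 they were Mllt6, at a log2 difference of -1.37 (SE 0.35), and, named after their values were seen, the deacetylase gene Hdac2 and the repressor gene Gfi1. Hdac2 went from 0.44 (SE 0.19) with that library to 0.67 (SE 0.14) without it, and Gfi1 from 0.34 (SE 0.58) to 1.15 (SE 0.35). Between organs in WT, 2 partners (3.57%) passed without it, beside 5.21% of all tested genes. Yeats2, a chromatin reader gene also named after its values were seen, went from -0.33 (SE 0.13) to -0.45 (SE 0.11), and Gfi1 from -0.58 (SE 0.58) to -1.39 (SE 0.35).
The subunits that work with KMT2A and the PAF1 and pausing factors had 0 genes at an unadjusted p under 0.05 between genotypes in either organ. The ranges over the 12 libraries were 386 to 775 normalized counts for Dpy30, 481 to 1256 for Hdgfrp2 (Hdgfl2), 854 to 997 for Rbbp5, 375 to 799 for Leo1, 544 to 670 for Nelfa, 724 to 1202 for Paf1 and 2311 to 3407 for Supt5.
Genes that MLL-AF9 is known to activate were read beside the cofactors. Of 12 such genes 11 were tested, and all 11 were on average higher in Δβ SP, with a median log2 difference of 0.48 and 0 passing by limma, edgeR or DESeq2. Of the 11, 7 were on average above WT in Δβ BM (median 0.05), again with 0 passing by each tool. Over all 11476 tested genes, 5521 were on average higher in Δβ SP and 5199 in Δβ BM. The 9 cofactor genes had medians of 0.13 in SP and -0.09 in BM. WT SP replicate 1, in which Mllt3, Kmt2a, Aff1, Mllt10, Dot1l and Psip1 were all lowest, also held the lowest Meis1, at 516 normalized counts against 1103 to 1757 in the other libraries. Hoxa9 was lowest there too, at 798 against 1237 to 3410. In WT SP replicates 2 and 3, Hoxa9 had 2060 and 2671 normalized counts, among the 1576 to 3410 of Δβ SP. Eya1, also 1 of the 11, had 493 and 769 there, beside 516 to 761 in Δβ SP. Meis1 had 1423 and 1152, beside 1155 to 1599. Jmjd1c and Mef2c of these WT SP replicates stayed below every Δβ SP library. How far the 11 of 11 in SP rests on WT SP replicate 1 was not tested. Jmjd1c had 3127 to 3483 normalized counts in WT SP and 4042 to 5713 in Δβ SP (log2 difference 0.60, SE 0.22, adjusted p = 0.275 by limma), and Mef2c had 1676 to 3101 in the WT and 3230 to 4100 in the Δβ libraries of BM (0.68, SE 0.25, adjusted p = 1.0 by limma).

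Stat3, the gene of the missing isoform, had 2977 to 4430 normalized counts in WT SP and 2674 to 3236 in Δβ SP, and its isoforms cannot be separated at the gene level. The STAT-type motif TTCNNNGAA, which reads the same on both strands, was in 0 of 14 RefSeq promoter windows (GRCm38) of 8 members, from 250 bases before to 50 after a start, and in 8.3% of 32851 windows of that length. Psip1 had no window in the table. This says only that these letters are not in these windows.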

How the data were processed

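Poly-A enriched RNA of Venus-sorted blasts was measured in 3 libraries per genotype and organ. The deposited values (unit: signal) are the authors' gene counts after division by the library's size factor. The submitters' processing notes name FastQC, STAR, featureCounts, DESeq2, GRCm38 and mm10, with no versions, and strand and multi-gene read handling are not given in the sources used here. All values were whole multiples of 1 read within a tolerance of 0.001, so reads were recovered. The table holds 6 further columns that no sample label describes, which were not used.

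Genes with a mean of at least 10 (11476) were tested with limma 3.58.1 (trend) in R 4.3.3 on log2 of the normalized count plus 1, with 1 mean per group and Benjamini-Hochberg adjustment over all of them. A log2 difference on this scale understates the change of low genes. Alternatives were pseudocounts of 0.25 and 4, no filter, a minimum mean of 50, TMM rescaling, edgeR 4.0.16 and DESeq2 1.42.0 on recovered reads, blocks for the replicate number, and each library left out. Added after the values were seen were fits without Δβ replicate 3 of both organs. The fit was tested on simulated data. In Δβ, deviations of SP and BM libraries of equal number correlated at 0.608 to 0.664, against -0.485 to -0.177 for unequal numbers. The second range is not separate evidence, since deviations from a group mean cancel within the group. Libraries of equal number in Δβ were read as pairs from the data, since no source states the pairing.

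The members and gene lists were chosen with earlier results of these data known. Named were the 9 members, Stat3, Kmt2a, in each partner list any gene that passed or otherwise the 2 smallest p in SP and in BM, and the 2 genes of closest pattern to each member. Positions and transcripts are those of GENCODE M21. Counting errors are Poisson and cover counting only. With 3 libraries against 3, an exact permutation test cannot go below p = 0.1, so none was run.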

Additional observations from a re-analysis of the deposited data

Results flagged for a closer look

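Kdm1a was singled out because its genotype difference pointed in opposite directions in the organs, with every Δβ SP library below every WT SP library and every Δβ BM library above every WT BM library. The difference between the genotype effects in SP and BM was -0.21 on the log2 scale (SE 0.12, adjusted p = 0.926 by limma), and so it did not pass the test. Over the alternatives it lay between -0.25 and -0.16, with the smallest adjusted p of 0.398 by limma, without WT SP replicate 3. Men1, Psip1, Mllt1 and Dot1l also differed in opposite directions in SP and BM, with groups that overlapped in at least 1 organ. For Dot1l the difference between the genotype effects was larger, at 0.40 (SE 0.17, adjusted p = 0.926 by limma). Groups without overlap were found for 17.3% of all tested genes in SP and 7.63% in BM, and the share with both was not counted.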

How the results depend on the processing

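Of 972 values of the 9 members under the alternatives, 971 kept their side of the threshold. The exception was Aff4 in SP, which passed at -0.73 without WT SP replicate 3. Of the 45 member differences, 16 changed sign under at least 1 alternative without passing under any, the largest of them 0.282 in absolute log2 units. The number of members called with 1 library left out was 0 to 1 in SP and 0 in the other comparisons, and that of partner genes was 0 to 4 in SP and 0 to 2 in WT SP against WT BM (Yeats2 and Gfi1, both named after their values were seen). DESeq2 called 1 partner gene in SP. Counts over all genes moved more, and the cause was not tested. From 12 in SP they went to 1 with a pseudocount of 0.25, 5 with no filter, 2 with a minimum mean of 50, 3 with TMM, 4 with edgeR, 457 with DESeq2, 27 without Δβ replicate 3 of both organs, and 1 to 1886 with 1 library left out, the highest without WT SP replicate 3. From 8 in BM they went to 37 with DESeq2, 27 without Δβ replicate 3 of both organs and 1 to 13 with 1 library left out. From 0, DESeq2 called 111 genes between organs in WT, 2 in Δβ and 3 in the interaction, and leaving out 1 library gave 0 to 598 in WT, the highest without WT SP replicate 3.

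Same-numbered libraries were not taken as pairs between genotypes or between organs in WT, where they did not all deviate together. The correlation of their deviations was -0.166 to 0.202 between genotypes in SP, -0.0893 to 0.128 in BM and -0.237 to -0.00936 between organs in WT. With the replicate block, 2 genes in SP and 5 in BM passed, 0 members passed in any comparison, and blocks by genotype and number changed no call between organs or in the interaction.

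With the longest transcript in place of all exons, levels per kilobase were 159.6 for Men1, 310.2 for Psip1, 51.8 for Mllt3, 77.9 for Aff4, 145.5 for Dot1l and 246.5 for Kdm1a. Depth limits Mllt3 most, whose counting SE of a genotype difference was 0.0773 in SP on the log2 scale.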

Other observations

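Eya1, among the genes that MLL-AF9 is known to activate, was split within the WT blasts. It had 3.42 normalized counts in WT SP replicate 1, 0.992 in WT BM replicate 1 and 3.38 in WT BM replicate 2. The other 3 WT libraries had 493, 769 and 620, and the 6 Δβ libraries had 516 to 761. Its log2 difference was 5.32 in BM (SE 2.14, adjusted p = 1.0 by limma) and 2.36 in SP (SE 2.14, adjusted p = 0.586 by limma), with groups apart in BM and overlapping in SP. Number 1 was thus low in both organs of WT, and number 2 in BM alone.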
